A study of Mus musculus with 14 samples.

Results

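The response of the wild-type (WT) hippocampus to neonatal hyperoxia was examined in 8 of the 14 libraries of the series, chosen by genotype and exposure as the sample titles and the columns of the deposited table name them. Each library is polyA RNA from the hippocampus of 1 mouse. The comparison described here is WT-O2 (4 mice, 85% O2) against WT-RA (4 mice, room air), both exposed from postnatal day (P) 1 to P14 and harvested at P15. All mice carry the breed label C57/BL6, and per the study's methods the WT pups were littermates from matings of heterozygous carriers of a global Gsdmd deletion. The 3 KO-RA and 3 KO-O2 mice, homozygous for that deletion, had the same exposures and harvest day, and enter only through the shared estimate of variance and the test of the interaction. Sex and litter are not given in the sources used here. For WT-O2 mouse GSD408 the title and the table column name hyperoxia while the treatment field names room air, so each count below depends on that label, and with GSD408 mapped to room air 6 genes were called instead of 107.

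The hippocampus at this age is still maturing: granule neurons are added to the dentate gyrus, pyramidal neurons of the CA fields form synapses, oligodendrocytes begin to wrap axons, and the capillary bed expands. Oxygen acts on such tissue through several known routes. Hypoxia-inducible factors (HIFs) are degraded when oxygen is plentiful, reactive oxygen species engage antioxidant genes, endothelial cells release vasoactive peptides such as endothelin, and neuronal firing switches on immediate early genes within minutes. The lists of genes used below follow these roles, with marker lists for the cell types and neighbouring regions that a hippocampal dissection can hold.

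Estimated counts summed to between 27547152 and 28209372 per WT library, so depth was nearly equal between the groups. Expression is given as CPM, counts scaled to library size with edgeR's TMM factors, and per-mouse values are listed in the order GSD398, GSD399, GSD400 and GSD401 for WT-RA and GSD404, GSD405, GSD406 and GSD408 for WT-O2. A gene counted as called when its log2 fold change was 0.322 or more in size, its p under 0.05 and its q under 0.1, the study's own thresholds, where q is the Benjamini-Hochberg adjusted p of edgeR's two-sided quasi-likelihood test over 16637 genes, and SE is the standard error of a log2 fold change. Hippocampal markers were present in all 8 libraries, with summed levels of 894 to 1053 CPM for 14 genes of CA1 to CA3 pyramidal cells and 167 to 374 CPM for 7 genes of dentate granule cells. Genes of neighbouring tissue were present too, and differed strongly between mice. The summed level of 10 thalamic genes was 129 to 882 CPM in WT-RA and 207 to 613 CPM in WT-O2, and that of 11 striatal genes 611 to 874 CPM and 415 to 958 CPM. In RNA from whole tissue, fewer cells of a type and less RNA per cell cannot be told apart.

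In WT hippocampus 58 genes were higher and 49 lower in hyperoxia. The 107 called genes are 0.643% of the genes tested, the higher ones 0.349% and the lower ones 0.295%. The changes were mostly small, with a median size of 0.52 on the log2 scale and a range from 0.33 to 2.67, and 19 genes changed more than 2-fold. Among called genes of at least 1 CPM whose groups did not overlap, the largest rises were in Depp1, Adm, Ier3, Apold1 and Edn1. The largest falls there were in the subplate gene Cplx3, the transcript Gm34583, the collagen gene Col24a1 and the activity genes Npas4, Arc and Fos. Values of the 4 WT-O2 and 4 WT-RA mice did not overlap for 99 of the called genes, against 5.99% of all genes tested. The calls rest on these same values, so the lack of overlap is not separate support for them. Over all genes the median log2 fold change was -0.0058 and 48.3% of genes were positive. The scaling of the libraries centres these values. Individual mice weighed on the calls: leaving out each WT mouse in turn gave between 13 genes (without GSD405) and 272 genes (without GSD398). Without GSD399, GSD404 or GSD406 the counts were 22, 33 and 59, without GSD401 177, and without GSD400 and GSD408 103 and 107, of which 60 and 68 were among the genes of the full comparison. DESeq2 in place of edgeR called 306 genes, 102 of them shared, and edgeR on the 8 WT libraries alone called 20, 18 of them shared.

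**Figure D1:**
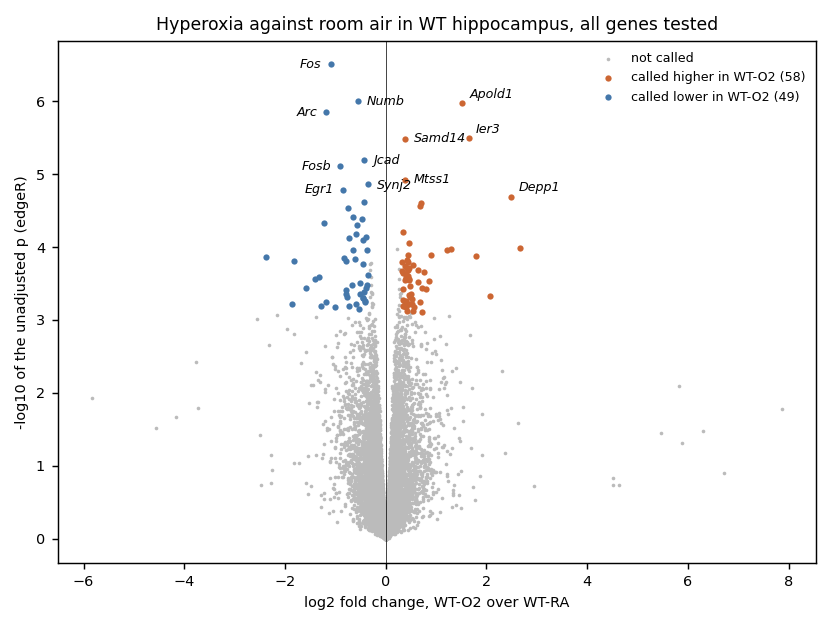
Each point is 1 of the 16637 genes tested, with the log2 fold change of WT-O2 over WT-RA on the x axis and -log10 of the unadjusted edgeR p on the y axis. Orange points are the 58 genes called higher, blue points the 49 called lower, and the 12 genes named were called in each of the 8 comparisons that leave out 1 WT mouse.

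In all, 12 genes were called whichever WT mouse was left out, 5 of them higher (Apold1, Depp1, Ier3, Mtss1 and Samd14) and 7 lower (Arc, Egr1, Fos, Fosb, Jcad, Numb and Synj2). Mtss1, Samd14, Jcad, Numb and Synj2 were singled out for this after their values were seen. Numb, a cell fate determinant that restrains Notch signalling in neural progenitors, was 30.5, 32.8, 37.0 and 31.0 CPM in WT-RA and 22.9, 23.5, 22.6 and 20.8 CPM in WT-O2. All 4 WT-O2 mice lay below all 4 WT-RA mice and close to each other (log2 fold change -0.55, SE 0.068, edgeR q = 0.00592). Jcad, a protein of endothelial cell junctions, was 117, 119, 109 and 110.2 CPM in WT-RA and 81.2, 80.0, 90.4 and 84.7 CPM in WT-O2. The highest WT-O2 mouse stayed under the lowest WT-RA mouse (log2 fold change -0.43, SE 0.064, edgeR q = 0.0153). Synj2, a phosphoinositide phosphatase that takes part in vesicle recycling, was 59.8, 56.2, 55.5 and 62.8 CPM in WT-RA and 44.2, 45.3, 44.9 and 48.6 CPM in WT-O2, again without overlap (log2 fold change -0.36, SE 0.056, edgeR q = 0.0225). The 2 moderately expressed genes that rose as steadily were small in effect. Samd14 was 69.4, 76.4, 74.3 and 82.0 CPM in WT-RA and 96.3, 102, 100.02 and 95.3 CPM in WT-O2 (log2 fold change 0.38, SE 0.053, edgeR q = 0.00908). Mtss1, which binds membranes and actin and shapes dendritic spines, was 75.0, 72.7, 67.4 and 66.0 CPM in WT-RA and 97.7, 93.1, 87.6 and 86.7 CPM in WT-O2, the groups standing apart (log2 fold change 0.38, SE 0.058, edgeR q = 0.0221). Another 5 genes, Bhlhe40, Clk1, Nrp2, Nudt4 and Rcan2, were called in 7 of the 8 comparisons, and 69 of the 107 in 4 or fewer. Of genes described further on, Adm, Maff, Npas4, Kcnj2, Tob1 and Necab3 were called in 6, Edn1, Gabra2 and Ptpro in 5, Calb1, Apaf1, Tspan18 and Otud1 in 4, Cplx3, Grik1, Slit3, Plxnc1 and Ednrb in 3, Rorb, Col24a1, Ppp1r3c, Clk4 and Adamts9 in 2, and Txnip, Syt17, Cryab and Akap12 in 1. Nudt4, a phosphohydrolase of inositol pyrophosphates, was 184, 191, 233 and 211 CPM in WT-RA and 149.6, 151, 142 and 152 CPM in WT-O2 (log2 fold change -0.46, SE 0.080, edgeR q = 0.0386), and Rcan2, an inhibitor of calcineurin, was 109.6, 105, 103 and 113 CPM in WT-RA and 71.9, 76.0, 85.0 and 87.5 CPM in WT-O2 (log2 fold change -0.42, SE 0.070, edgeR q = 0.0299). Both were lower in every WT-O2 mouse than in any WT-RA mouse.

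Activity-induced immediate early genes gave 5 of the 49 lower genes, more than any other of the 55 lists. These genes are transcribed within minutes of synaptic calcium entry, in part through the cAMP response element (CRE) bound by CREB. Of the 20 tested, 5 were called lower and none higher, with a median log2 fold change of -0.44 against -0.0058 over all genes, and 17 were negative. Short promoter stretches are printed for Fos, Fosb and Npas4, lower genes with well known activity-driven promoters that hold the CRE half-site TGACG. That half-site is in 35.9% of lower genes and 27.8% of all genes tested with a promoter entry. Egr1 and Arc are not among the lower genes found with it, and Arc has no promoter entry. The full CRE TGACGTCA is in none of the printed stretches. Each stretch is the 250 bases before the RefSeq start on the gene's strand (GRCm38.p6), 5′ to 3′, with TGACG, on either strand, in capitals.
Fos (chr12:85473640-85473889, plus strand): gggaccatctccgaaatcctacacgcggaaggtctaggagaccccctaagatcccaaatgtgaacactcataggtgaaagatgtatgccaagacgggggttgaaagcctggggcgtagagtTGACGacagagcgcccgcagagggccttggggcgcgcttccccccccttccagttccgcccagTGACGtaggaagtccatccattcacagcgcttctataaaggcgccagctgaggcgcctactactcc
Fosb (chr7:19310046-19310295, minus strand): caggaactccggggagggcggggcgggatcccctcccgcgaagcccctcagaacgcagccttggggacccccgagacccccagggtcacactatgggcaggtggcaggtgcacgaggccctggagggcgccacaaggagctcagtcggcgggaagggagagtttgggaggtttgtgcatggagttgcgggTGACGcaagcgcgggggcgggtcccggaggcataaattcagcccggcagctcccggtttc
Npas4 (chr19:4989972-4990221, minus strand): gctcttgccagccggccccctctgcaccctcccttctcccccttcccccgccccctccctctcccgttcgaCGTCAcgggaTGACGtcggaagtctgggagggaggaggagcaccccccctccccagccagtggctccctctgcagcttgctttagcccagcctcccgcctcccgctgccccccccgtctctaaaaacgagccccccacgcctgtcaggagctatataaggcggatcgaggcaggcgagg
The half-site nearest to the start ends 62 bases before it in Fos and 56 bases before it in Fosb, and Npas4 holds 2 copies between 179 and 165 bases before its start.

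Fos, a subunit of AP-1, was 17.2, 19.48, 17.2 and 14.8 CPM in WT-RA and 6.34, 8.60, 7.79 and 9.57 CPM in WT-O2, and Fosb, its relative, was 5.82, 6.41, 6.396 and 6.31 CPM in WT-RA and 2.82, 3.94, 2.90 and 3.68 CPM in WT-O2. In both genes every WT-O2 mouse lay below every WT-RA mouse. Npas4, a neuron-specific factor that tunes inhibitory synapses, was 17.8, 21.1, 26.8 and 20.1 CPM in WT-RA and 7.84, 13.4, 7.90 and 7.64 CPM in WT-O2 (log2 fold change -1.22, SE 0.22, edgeR q = 0.0413). WT-O2 mouse GSD405 stood above the other 3 WT-O2 mice and still below the lowest WT-RA mouse. Arc, which drives endocytosis of AMPA receptors, was 96.2, 122, 87.1 and 85.7 CPM in WT-RA and 34.0, 43.4, 50.5 and 44.98 CPM in WT-O2, with every WT-O2 mouse below every WT-RA mouse. Egr1 was 139.8, 187, 212 and 153 CPM in WT-RA and 86.8, 109.7, 98.5 and 89.0 CPM in WT-O2, also without overlap. Egr3, of the same zinc finger family, was 86.5, 103.9, 100.7 and 83.6 CPM in WT-RA and 104.5, 95.0, 92.7 and 79.8 CPM in WT-O2 and did not pass the test (log2 fold change -0.011, SE 0.097, edgeR q = 0.981), and the scaffold gene Homer1 had a log2 fold change of -0.40 (edgeR q = 0.173). Kcnj2, an inward rectifier potassium channel, was 8.15, 9.65, 8.13 and 9.15 CPM in WT-RA and 5.06, 5.09, 5.95 and 4.91 CPM in WT-O2 (log2 fold change -0.74, SE 0.12, edgeR q = 0.0304). It was the one called gene of 29 potassium and HCN channel genes, whose median log2 fold change was -0.07. The antiproliferative gene Tob1 was 44.3, 40.9, 35.1 and 41.5 CPM in WT-RA and 22.9, 26.5, 31.1 and 28.2 CPM in WT-O2, and the zinc finger gene Klf6 was 44.5, 48.0, 59.4 and 55.3 CPM in WT-RA and 36.9, 36.5, 44.0 and 34.5 CPM in WT-O2. Neither overlapped (log2 fold change -0.58, SE 0.10, edgeR q = 0.0417 for Tob1 and log2 fold change -0.45, SE 0.089, edgeR q = 0.0612 for Klf6), and both were chosen after their values were seen.

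**Figure D2:**
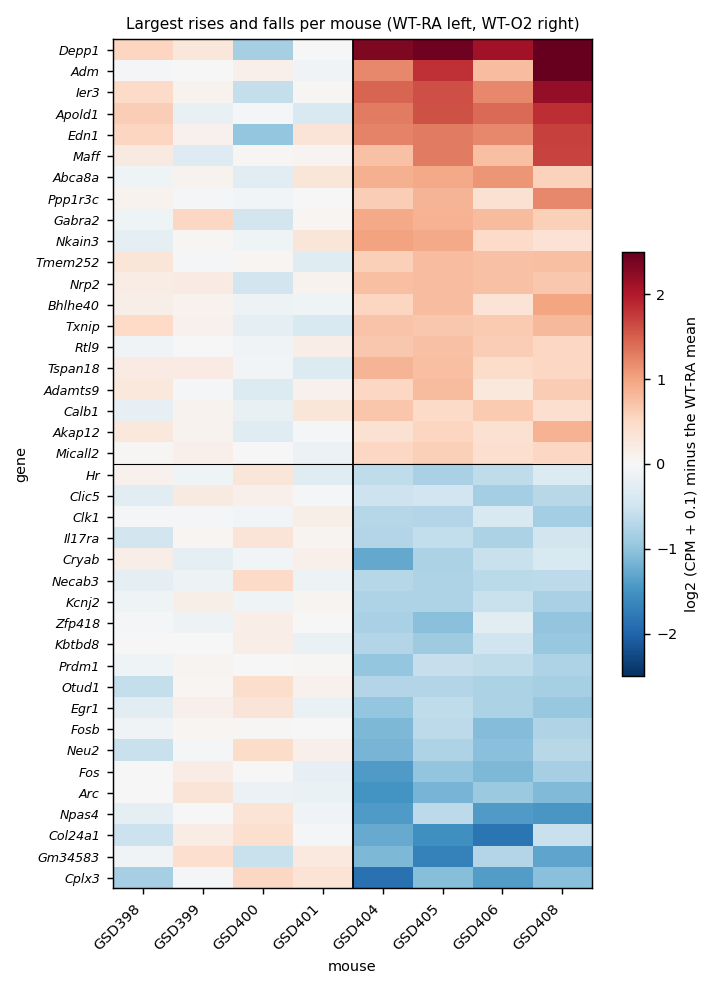
Rows are called genes, the 20 that rose most and the 20 that fell most among those of at least 1 CPM whose groups did not overlap, columns are the 8 WT mice, and color is log2 (CPM + 0.1) minus the WT-RA mean. GSD408, the last column, is darkest for Depp1, Adm, Ier3, Apold1, Maff and Ppp1r3c, and GSD398, the first column, has the lowest WT-RA value for Cplx3, Col24a1, Otud1 and Neu2.

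Apold1, an endothelial early-response gene, was 7.13, 4.09, 4.49 and 3.55 CPM in WT-RA and 11.6, 14.3, 12.5 and 16.9 CPM in WT-O2. Every WT-O2 mouse was above the highest WT-RA mouse, GSD398 (log2 fold change 1.52, SE 0.19, edgeR q = 0.00592). Ier3, an early-response gene that modulates ERK signalling and cell survival, was 4.40, 3.31, 2.01 and 3.19 CPM in WT-RA and 8.72, 9.75, 7.33 and 14.7 CPM in WT-O2, the groups again apart. Depp1, a target of FoxO factors linked to autophagy and oxidative stress, was 2.25, 1.87, 0.813 and 1.51 CPM in WT-RA and 7.99, 8.57, 6.80 and 13.0 CPM in WT-O2, the largest fold change of any called gene above 1 CPM (log2 fold change 2.496, SE 0.41, edgeR q = 0.0284). It was the one called gene among 24 glucocorticoid and FoxO responsive genes, whose median was 0.064. The promoters of Ier3 and Apold1 are shown because both rose in each of the comparisons with a mouse left out and both hold the core of the HIF-binding element, ACGTG, on either strand. That core is in 24.4% of higher genes and 23.5% of all genes tested with a promoter entry. The Apold1 window also holds the CRE half-site, which is not capitalised. They are given as above, with ACGTG in capitals.
Ier3 (chr17:35821463-35821712, plus strand): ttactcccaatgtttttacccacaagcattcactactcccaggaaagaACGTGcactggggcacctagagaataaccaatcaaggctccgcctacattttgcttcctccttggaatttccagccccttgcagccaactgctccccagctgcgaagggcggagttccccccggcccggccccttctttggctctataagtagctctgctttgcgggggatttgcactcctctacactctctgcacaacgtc
Apold1 (chr6:134981751-134982000, plus strand): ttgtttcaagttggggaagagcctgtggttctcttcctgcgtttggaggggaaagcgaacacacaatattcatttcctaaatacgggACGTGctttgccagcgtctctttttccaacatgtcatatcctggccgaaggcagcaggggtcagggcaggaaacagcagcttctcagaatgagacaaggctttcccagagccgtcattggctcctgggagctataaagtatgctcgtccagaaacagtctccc
The element begins 202 bases before the start in Ier3 and 163 bases before it in Apold1.

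Of the 28 tested HIF targets and genes of glycolysis, 2 were called higher, Adm and Bhlhe40, and none lower. The median log2 fold change was 0.046, and 10 were negative. Adm, the vasodilator adrenomedullin, was 1.35, 1.37, 1.52 and 1.29 CPM in WT-RA and 3.30, 5.16, 2.44 and 8.41 CPM in WT-O2 (log2 fold change 1.80, SE 0.35, edgeR q = 0.0612). Bhlhe40, a repressor that links hypoxia to the circadian clock, was 51.0, 49.5, 42.5 and 42.9 CPM in WT-RA and 67.6, 78.8, 59.0 and 91.8 CPM in WT-O2 (log2 fold change 0.68, SE 0.11, edgeR q = 0.0304). In both, GSD408 was the highest mouse and GSD406 the lowest of its group, though above all WT-RA mice. Vegfa, the main angiogenic HIF target, was 56.7, 54.2, 56.8 and 59.1 CPM in WT-RA and 68.2, 107, 51.3 and 146 CPM in WT-O2. GSD404, GSD405 and GSD408 stood above all WT-RA mice, GSD406 stood below them, and the gene was not called (log2 fold change 0.71, SE 0.24, edgeR q = 0.226). Among glycolytic enzymes Gapdh had a log2 fold change of -0.083 (edgeR q = 0.671) and Eno1 one of -0.12 (edgeR q = 0.554). GSD408 was the highest WT-O2 mouse for all 9 stress and vessel genes examined for this (Apold1, Ier3, Depp1, Adm, Edn1, Bhlhe40, Maff, Osgin1 and Ppp1r3c), chosen after their values were seen. Over all called genes GSD408 was the WT-O2 mouse farthest from WT-RA for 14 of the 58 higher and 15 of the 49 lower genes, against 21 and 12 for GSD405, 15 and 16 for GSD404 and 8 and 6 for GSD406.

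Among 21 vasoactive peptides and receptors 3 were called higher and none lower. The median was 0.14, and 8 had negative log2 fold changes. Edn1, the vasoconstrictor endothelin, was 4.84, 3.56, 1.63 and 4.12 CPM in WT-RA and 7.95, 8.21, 7.72 and 10.9 CPM in WT-O2. The lowest WT-O2 mouse, GSD406, was above the highest WT-RA mouse, GSD398. Ednrb, the endothelin receptor of astrocytes and endothelium, was 107, 108, 110.3 and 125 CPM in WT-RA and 155, 165, 122 and 149 CPM in WT-O2 (log2 fold change 0.39, SE 0.088, edgeR q = 0.0872), with GSD406 under GSD401. Nrp2, a co-receptor for semaphorins and VEGF-C, was 69.3, 70.4, 44.4 and 64.9 CPM in WT-RA and 103, 104.4, 102 and 97.3 CPM in WT-O2, the WT-O2 mice being tightly grouped. It was the one called member of 10 Vegf ligands, receptors and neuropilins, whose median was 0.16. Called genes of vessels and matrix in none of these lists went both ways. Jcad, given above, Col24a1 and the metalloprotease Adamts20 fell, at log2 fold changes of -0.43, -1.29 and -0.46 (edgeR q = 0.0153, 0.0885 and 0.0827), while Tspan18, which supports calcium entry in endothelial cells, and the metalloprotease Adamts9 rose. Tspan18 was 30.5, 30.5, 25.2 and 20.9 CPM in WT-RA and 48.0, 44.9, 36.4 and 38.1 CPM in WT-O2 (log2 fold change 0.64, SE 0.13, edgeR q = 0.0642) and Adamts9 was 11.6, 9.47, 7.53 and 10.4 CPM in WT-RA and 13.9, 16.7, 11.6 and 15.0 CPM in WT-O2 (log2 fold change 0.55, SE 0.13, edgeR q = 0.0894). Neither overlapped, although GSD398 and GSD406 were nearly equal for Adamts9.

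No marker of vessel cells was called. This held for 21 brain endothelial markers, 7 tip cell markers and 14 mural cell markers, with medians of -0.077, 0.050 and -0.013. Of the endothelial markers 16 were negative. The unadjusted edgeR p was below 0.05 for 6 of the 21, all lower, and for 2027 of the 16637 genes tested. The transporter Slco1a4 was 37.9, 33.8, 24.4 and 37.3 CPM in WT-RA and 26.7, 21.3, 30.1 and 23.9 CPM in WT-O2 (log2 fold change -0.39, SE 0.13, edgeR q = 0.230) and the pericyte gene Rgs5 had a log2 fold change of -0.022 (edgeR q = 0.952). Meningeal fibroblast genes were positive for 11 of 12, median 0.26, and none was called. Among them the proteoglycan gene Dcn was 23.6, 19.4, 8.06 and 34.6 CPM in WT-RA and 69.3, 44.99, 53.1 and 38.4 CPM in WT-O2, without overlap (log2 fold change 1.26, SE 0.30, edgeR q = 0.105). Collagens had 1 called gene of 36, Col24a1, and a median of 0.10.

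Ppp1r3c, which directs phosphatase to glycogen, was 30.1, 27.6, 26.6 and 28.3 CPM in WT-RA and 43.4, 51.0, 36.8 and 64.9 CPM in WT-O2 (log2 fold change 0.80, SE 0.17, edgeR q = 0.0758). Txnip, which inhibits thioredoxin and limits glucose uptake, was 33.7, 25.7, 20.2 and 18.1 CPM in WT-RA and 38.8, 37.7, 37.7 and 41.6 CPM in WT-O2 (log2 fold change 0.67, SE 0.15, edgeR q = 0.0872). Its groups were apart, but GSD398 came within a few CPM of the WT-O2 mice. Txnip was the one called gene of 25 antioxidant and metallothionein genes, median -0.0061. Maff, a small Maf factor that pairs with NRF2, was 1.64, 1.09, 1.41 and 1.47 CPM in WT-RA and 2.38, 3.55, 2.41 and 4.70 CPM in WT-O2 (log2 fold change 1.21, SE 0.23, edgeR q = 0.0574). Osgin1, an NRF2 target present at under 1 CPM in most mice and named after its values were seen, was 0.109, 0.0352, 0.106 and 0.143 CPM in WT-RA and 0.440, 0.466, 0.531 and 1.16 CPM in WT-O2 (log2 fold change 2.67, SE 0.51, edgeR q = 0.0574). Of 16 genes of the integrated stress and unfolded protein response none was called, median -0.080, although Trib3 was 0.400, 0.176, 0.247 and 0.179 CPM in WT-RA and 0.403, 0.717, 0.425 and 0.736 CPM in WT-O2, without overlap (log2 fold change 1.18, SE 0.38, edgeR q = 0.219). Among 16 p53 targets and apoptosis genes Apaf1, which assembles the apoptosome, was called. It was 14.0, 14.9, 13.8 and 15.3 CPM in WT-RA and 21.3, 18.9, 20.1 and 17.4 CPM in WT-O2 (log2 fold change 0.42, SE 0.083, edgeR q = 0.0612), and the list's median was 0.0093. Hrk, a BH3-only death activator of neurons outside that list, named after its values were seen, was 49.0, 62.1, 63.9 and 56.0 CPM in WT-RA and 93.4, 81.4, 78.8 and 65.0 CPM in WT-O2 (log2 fold change 0.46, SE 0.098, edgeR q = 0.0679).

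**Figure D3:**
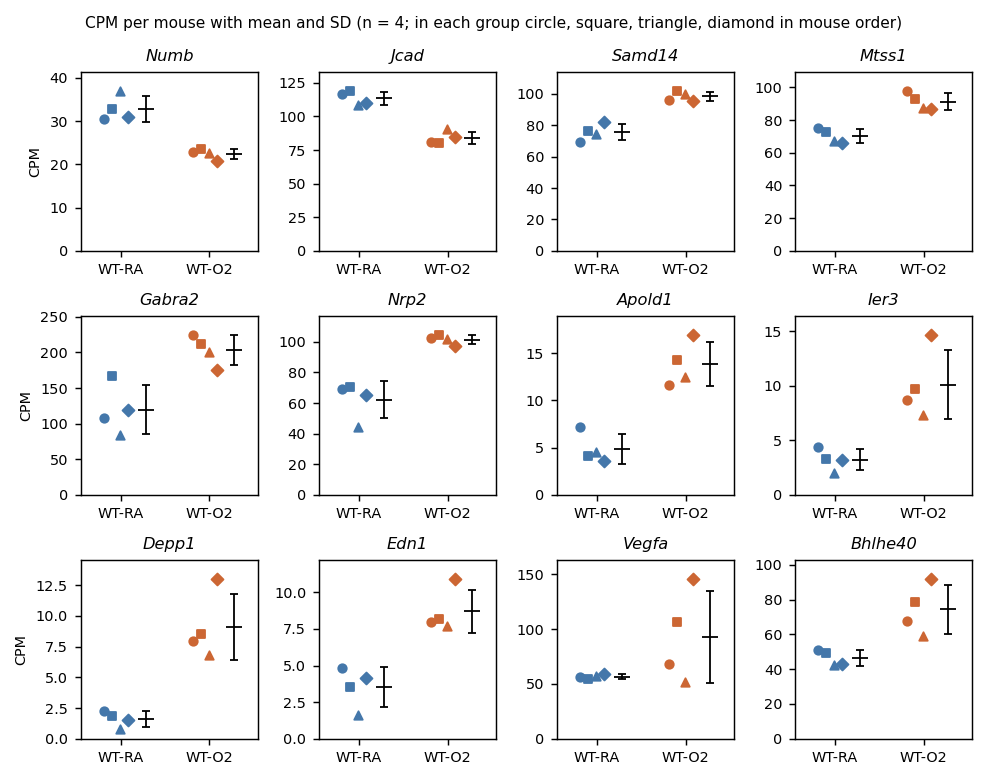
Each panel gives the CPM of 1 gene, on a linear axis from 0, in the 4 WT-RA mice (blue) and the 4 WT-O2 mice (orange), with the group mean and SD beside them. Numb, Jcad, Samd14, Mtss1 and Nrp2 are tight within WT-O2, while Apold1, Ier3, Depp1, Edn1, Bhlhe40 and Vegfa have GSD408, the orange diamond, on top. Vegfa alone overlaps between the groups.

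Genes of heat shock, cold response and splicing kinases gave 2 called genes of 15, both lower and both CLK kinases, which phosphorylate splicing factors and retain their own introns. Clk1 was 68.6, 69.8, 67.4 and 78.2 CPM in WT-RA and 43.4, 42.9, 54.7 and 39.1 CPM in WT-O2 (log2 fold change -0.66, SE 0.11, edgeR q = 0.0380) and Clk4 was 39.9, 35.3, 36.0 and 42.6 CPM in WT-RA and 29.2, 26.8, 30.6 and 27.6 CPM in WT-O2 (log2 fold change -0.43, SE 0.094, edgeR q = 0.0800). All WT-O2 mice were under all WT-RA mice for both. The chaperone gene Hspa8 had a log2 fold change of 0.044 (edgeR q = 0.802). Cryab, a small heat shock protein abundant in oligodendrocytes, was 79.8, 60.1, 67.1 and 77.4 CPM in WT-RA and 29.2, 40.5, 47.8 and 54.2 CPM in WT-O2 (log2 fold change -0.73, SE 0.17, edgeR q = 0.0894). Its WT-O2 values followed the order of the summed myelin genes given below, from GSD404 to GSD408. In WT-RA the orders differed, with GSD399 lowest for Cryab and GSD400 lowest for the summed myelin genes. A link between Cryab and the myelin genes was not tested.

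Gabra2, an alpha subunit of the GABA-A receptor, was 108, 167, 84.4 and 119.8 CPM in WT-RA and 224, 212, 201 and 175 CPM in WT-O2 (log2 fold change 0.76, SE 0.16, edgeR q = 0.0642). Room air values spread widely, and the highest of them, in GSD399, nearly reached the lowest WT-O2 value. It was the 1 gene called of 14 GABA-A subunits (median 0.12). Grik1, a kainate receptor subunit, was 24.2, 21.1, 20.2 and 22.2 CPM in WT-RA and 32.7, 28.3, 26.1 and 29.6 CPM in WT-O2, without overlap (log2 fold change 0.41, SE 0.085, edgeR q = 0.0653). It was the one called of 29 glutamate receptor and scaffold genes, median -0.0093. Syt17, a synaptotagmin, was 47.2, 53.9, 42.4 and 56.9 CPM in WT-RA and 60.2, 65.1, 72.6 and 66.0 CPM in WT-O2 (log2 fold change 0.40, SE 0.092, edgeR q = 0.0894), and with Cplx3, which fell, it made up the calls among 20 genes of presynaptic release. Of that list 15 were negative, with a median of -0.11. Dgkg, a diacylglycerol kinase, and Ak5, a neuronal adenylate kinase, were also called higher, at log2 fold changes of 0.47 and 0.35 (edgeR q = 0.0679 and 0.0857), and were named after their values were seen.

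Of 43 axon guidance genes (semaphorins, plexins, Slits, Robos and netrins) 3 were called higher and none lower. The median was 0.082, and 17 had negative log2 fold changes. Beside Nrp2 the genes called were Plxnc1, a semaphorin receptor, and Slit3, a repellent ligand. Plxnc1 was 45.2, 56.4, 42.4 and 59.4 CPM in WT-RA and 69.5, 78.4, 68.2 and 65.8 CPM in WT-O2 (log2 fold change 0.47, SE 0.11, edgeR q = 0.0808), and Slit3 was 52.2, 53.5, 47.2 and 51.5 CPM in WT-RA and 66.2, 71.0, 67.1 and 63.3 CPM in WT-O2 (log2 fold change 0.39, SE 0.082, edgeR q = 0.0679). Both were above room air in each WT-O2 mouse. Ptpro, a receptor phosphatase acting on Eph receptors, was 71.7, 69.5, 69.9 and 55.9 CPM in WT-RA and 93.4, 85.9, 91.9 and 97.8 CPM in WT-O2 (log2 fold change 0.47, SE 0.087, edgeR q = 0.0556) and was the one called of 34 adhesion genes, median 0.11. Of 19 ephrins and Eph receptors none was called (median 0.048).

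The list of dentate granule cells and the list named deep-layer neocortex and subplate had medians of opposite sign. Calb1, the calcium buffer of mature granule cells, was 59.9, 73.2, 61.1 and 84.9 CPM in WT-RA and 111, 96.0, 108 and 92.2 CPM in WT-O2 (log2 fold change 0.55, SE 0.11, edgeR q = 0.0623), all WT-O2 mice being above all WT-RA mice. Of the 7 dentate genes 6 were positive, with a median of 0.49, and Calb1 alone was called. Prox1, the factor that specifies granule cells, had a log2 fold change of 0.49 (edgeR q = 0.584). Over the 13 genes of the deep-layer neocortex and subplate list the median was -0.49, 10 were negative, and Cplx3 and Rorb were called. This list is not limited to deep layers, as it holds the layer IV gene Rorb and the upper-layer gene Cux2. Cux2 had a log2 fold change of -0.49 (edgeR q = 0.128). Cplx3, a complexin of subplate neurons, was 13.3, 22.9, 34.1 and 30.1 CPM in WT-RA and 6.41, 11.2, 8.89 and 11.4 CPM in WT-O2 (log2 fold change -1.40, SE 0.30, edgeR q = 0.0679). Rorb, a receptor of layer IV neurons and the retinoid-related arm of the clock, was 21.5, 16.8, 22.1 and 17.7 CPM in WT-RA and 13.4, 11.005, 13.6 and 16.2 CPM in WT-O2 (log2 fold change -0.53, SE 0.12, edgeR q = 0.0940). The collagen gene Col24a1 was 4.04, 6.76, 7.88 and 5.74 CPM in WT-RA and 2.42, 1.97, 1.59 and 3.997 CPM in WT-O2 (log2 fold change -1.29, SE 0.30, edgeR q = 0.0885). None of the 3 overlapped between groups. Tbr1, a factor of early-born cortical neurons, was 42.7, 99.4, 142 and 76.0 CPM in WT-RA and 60.3, 48.8, 49.1 and 47.9 CPM in WT-O2 (log2 fold change -0.81, SE 0.24, edgeR q = 0.180).

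For several of these genes WT-RA mouse GSD398 was the one nearest to the hyperoxia group. It had the lowest WT-RA value for Cplx3, Col24a1 and Tbr1, though not for Rorb. The summed level of the 13 genes of the deep-layer neocortex and subplate list was 334, 476, 639 and 471 CPM in WT-RA and 345, 356, 324 and 353 CPM in WT-O2. GSD398 also had the highest summed thalamic level of the 8 mice, 882 CPM. Another 3 called genes, in which GSD398 lay among or beside the WT-O2 mice, are named after their values were seen. Myl4, a myosin light chain, was 2.73, 8.10, 15.0 and 13.9 CPM in WT-RA and 2.97, 2.69, 2.87 and 2.73 CPM in WT-O2 (log2 fold change -1.82, SE 0.36, edgeR q = 0.0612), Gm11549, an uncharacterized transcript, was 5.56, 14.4, 29.0 and 19.6 CPM in WT-RA and 6.998, 6.27, 4.85 and 4.77 CPM in WT-O2 (log2 fold change -1.58, SE 0.34, edgeR q = 0.0758), and Padi6, an arginine deiminase at low level, was 0.364, 1.37, 1.94 and 1.76 CPM in WT-RA and 0.403, 0.215, 0.212 and 0.210 CPM in WT-O2 (log2 fold change -2.37, SE 0.46, edgeR q = 0.0612). GSD398 was the WT-RA mouse nearest to WT-O2 for 23 of the 49 lower genes and 20 of the 58 higher genes. GSD401 was the nearest for 9 of the lower genes and for 24 of the higher genes, more than GSD398. Without GSD398, 167 genes were called lower and 105 higher, and 94 of the 107 were among them. The part of the dissection in these differences was not tested.

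**Figure D4:**
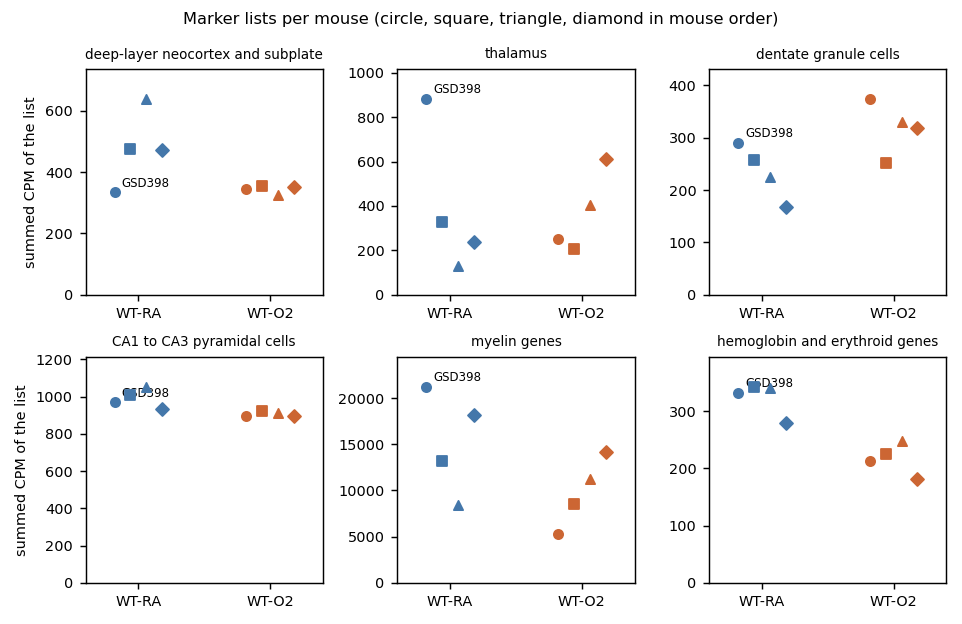
Summed CPM of 6 marker lists in each WT mouse, WT-RA in blue and WT-O2 in orange, on linear axes from 0. GSD398 lies at 334 CPM with the WT-O2 mice for the deep-layer neocortex and subplate list and highest of all, at 882 CPM, for thalamic genes. Sums of hemoglobin and erythroid genes do not overlap between the groups, at 279 to 343 CPM against 181 to 248 CPM.

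Log2 fold changes were negative for all 16 myelin genes, with a median of -0.61, and none was called. The summed level was 21238, 13173, 8469.6 and 18170.0 CPM in WT-RA and 5326, 8485, 11264 and 14182 CPM in WT-O2. The groups overlapped, with GSD399 and GSD400 inside the range of the WT-O2 mice. Mbp, the main protein of compact myelin, had a log2 fold change of -0.63 (edgeR q = 0.414) and Ermn, a late oligodendrocyte gene, one of -0.88 (edgeR q = 0.302). Oligodendrocyte precursor genes had a median of -0.16 and no call among 10, with Gpr17 at -0.32 (edgeR q = 0.295). Cholesterol biosynthesis, which supplies myelin, was negative for all 16 genes with a median of -0.13 and no call. Idi1, an isomerase of the pathway, was 98.6, 88.5, 83.1 and 99.1 CPM in WT-RA and 73.7, 75.5, 71.2 and 70.1 CPM in WT-O2, without overlap (log2 fold change -0.35, SE 0.091, edgeR q = 0.136).

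No gene of the glial and inflammatory lists passed the test, while Il17ra, in none of them, was called and is given further on. Of 20 microglial genes none was called (median 0.043, smallest q = 0.354 in edgeR's test), and likewise none of 9 activation genes (median 0.033). Aif1, stained in the study as a microglial marker, was 1.96, 2.85, 2.58 and 1.90 CPM in WT-RA and 2.64, 1.65, 2.37 and 2.42 CPM in WT-O2, and Cd68, a lysosomal marker, was 11.1, 12.05, 13.6 and 12.6 CPM in WT-RA and 12.5, 13.8, 13.2 and 12.9 CPM in WT-O2, both overlapping. The astrocyte filament gene Gfap was 278, 272, 214 and 268 CPM in WT-RA and 298, 338, 335 and 294 CPM in WT-O2, every WT-O2 mouse being above every WT-RA mouse, and did not reach the q threshold (log2 fold change 0.29, SE 0.082, edgeR q = 0.158). Neither 14 astrocyte genes nor 12 reactive astrocyte genes gave a call (medians 0.061 and 0.065). Gsdmd, which encodes the pore-forming protein of pyroptosis, was 1.6002, 1.69, 1.80 and 1.47 CPM in WT-RA and 2.20, 1.83, 2.23 and 2.10 CPM in WT-O2, without overlap (log2 fold change 0.35, SE 0.17, edgeR q = 0.442). Casp1, which cleaves it, was 0.836, 1.02, 0.919 and 0.897 CPM in WT-RA and 1.502, 1.68, 1.35 and 1.16 CPM in WT-O2 (log2 fold change 0.63, SE 0.19, edgeR q = 0.180). These values lie near 1 to 2 CPM, and none of 11 gasdermin and inflammasome genes was called (median 0.014). Il33, an alarmin of oligodendrocytes and astrocytes, was 11.2, 10.9, 5.97 and 13.4 CPM in WT-RA and 13.6, 15.3, 13.0 and 14.8 CPM in WT-O2 (log2 fold change 0.45, SE 0.18, edgeR q = 0.308). No gene of 13 cytokines and receptors was called (median 0.035). Of 17 interferon-stimulated and MHC class I genes 13 were negative (median -0.35) without a call, and Usp18 was 0.727, 1.90, 0.601 and 0.574 CPM in WT-RA and 0.366, 0.179, 0.354 and 0.175 CPM in WT-O2, without overlap (log2 fold change -1.81, SE 0.47, edgeR q = 0.130).

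Of the genes the study assayed by staining or qRT-PCR, 14 of 16 passed the filter on low counts, and Ier3, Bhlhe40 and Edn1 were called, all higher. The study chose Ier3, Bhlhe40 and Edn1 for qRT-PCR from its RNA-seq results, so their calls are not independent evidence of direction. Of the others, log2 fold changes were 0.17 for the proliferation gene Mki67, -0.097 for the progenitor gene Sox2, -0.0036 for the neuronal gene Rbfox3, 0.077 for Il1r1 and -0.038 for Il18, and edgeR q was 0.622, 0.666, 0.995, 0.919 and 0.901 in the same order. Cell cycle genes had a median of 0.072 and no call among 19, and progenitor and immature neuron genes a median of 0.11 and no call among 16.

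Hemoglobin and erythroid genes, which are typical of red blood cells, had negative log2 fold changes for 5 of 6 genes and were not called. The blood content of the samples was not tested. Hba-a2 was 122, 132, 126 and 96.8 CPM in WT-RA and 78.7, 83.2, 91.0 and 60.8 CPM in WT-O2 (log2 fold change -0.60, SE 0.25, edgeR q = 0.349) and Hbb-bs was 92.1, 80.3, 85.7 and 74.4 CPM in WT-RA and 52.2, 54.9, 62.0 and 49.0 CPM in WT-O2 (log2 fold change -0.61, SE 0.21, edgeR q = 0.237). The groups did not overlap in either, but the alpha genes are near-identical copies that share reads, as are the beta genes, so the split between copies is uncertain. Choroid plexus genes were negative for 10 of 11 (median -0.27) and ependymal genes for all 7 (median -0.36), without a call. Their values differed strongly between mice, with choroid sums of 1020 to 2568 CPM in WT-RA and 1083 to 1593 CPM in WT-O2.

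Across all 55 lists 929 genes were tested and 28 were called, 16 higher and 12 lower, and 35 lists had no called gene. The called share was 3.01% of list genes, against 0.643% of all genes tested. The lists were chosen with earlier results of these data known, so the larger share is not evidence about the lists. List medians ran from -0.61 to 0.485, and 45 of the 55 lay within 0.2 of 0. Beside those already given, calls fell in the MAPK feedback genes, where Ier3 rose and Phlda1 fell among 17 (median -0.080), and in the circadian clock genes, where Bhlhe40 rose and Rorb fell among 19 (median -0.054). Phlda1, a pleckstrin-domain gene induced by ERK, was 26.2, 23.6, 23.8 and 28.4 CPM in WT-RA and 17.9, 20.1, 19.4 and 20.02 CPM in WT-O2 (log2 fold change -0.40, SE 0.086, edgeR q = 0.0758). Nuclear-encoded oxidative phosphorylation genes gave no call, with log2 fold changes between -0.15 and 0.054 over 30 genes. Mitochondrially encoded genes had a median of 0.14 over 13 genes and no call. No call was made among 31 Wnt pathway genes, 24 BMP signalling and Id genes, 29 neurotrophin, IGF and FGF genes, 24 sodium and calcium channel genes, 20 serotonin and adrenergic receptors, 19 neuropeptides, 17 interneuron genes, 13 proteoglycans, 10 pan-neuronal genes, 11 striatal genes, 10 thalamic genes or 14 CA1 to CA3 genes.

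**Figure D5:**
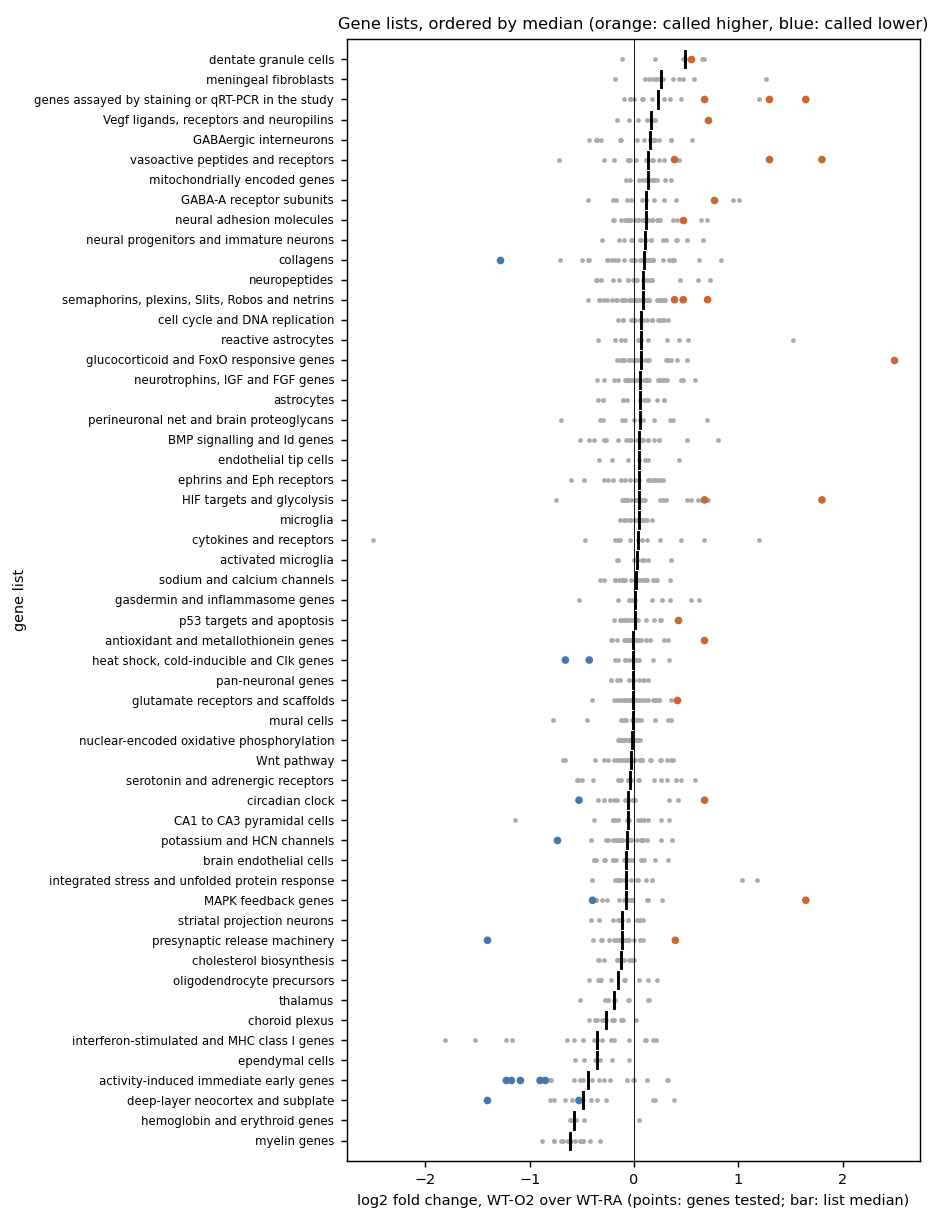
Points are the genes tested in each of the 55 lists at their log2 fold change of WT-O2 over WT-RA, orange where called higher and blue where called lower, and the bar is the list's median. Dentate granule genes have the highest median, 0.485, and myelin genes the lowest, -0.61.

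Of the called genes, 79 are in no list. With each WT mouse left out in turn, Necab3 was called in 6 of the 8 comparisons, Abca8a, Otud1, Kbtbd8, Hr, Clic5 and Gm34583 in 4, Il17ra and Rtl9 in 3, Nkain3, Prdm1 and Zfp418 in 2, and Akap12, Neu2, Tmem252 and Micall2 in 1. Abca8a, a lipid transporter, was 3.53, 4.05, 3.14 and 4.70 CPM in WT-RA and 7.11, 7.42, 8.36 and 5.75 CPM in WT-O2 (log2 fold change 0.89, SE 0.17, edgeR q = 0.0612), Nkain3, which interacts with the sodium pump, was 6.55, 7.96, 7.24 and 9.61 CPM in WT-RA and 15.7, 15.1, 10.8 and 10.1 CPM in WT-O2 (log2 fold change 0.72, SE 0.17, edgeR q = 0.0992), and Akap12, a kinase anchor of vessel and glial cells, was 36.8, 32.8, 25.0 and 29.5 CPM in WT-RA and 39.9, 44.5, 39.9 and 56.6 CPM in WT-O2 (log2 fold change 0.54, SE 0.13, edgeR q = 0.0969). In all of these the groups were apart. Among the lower genes Necab3, a calcium-binding protein, was 31.1, 33.5, 51.1 and 33.5 CPM in WT-RA and 22.4, 21.4, 22.9 and 23.3 CPM in WT-O2 (log2 fold change -0.73, SE 0.13, edgeR q = 0.0525), Il17ra, the interleukin 17 receptor, was 8.04, 11.5, 14.0 and 11.7 CPM in WT-RA and 6.63, 7.21, 6.37 and 8.03 CPM in WT-O2 (log2 fold change -0.68, SE 0.15, edgeR q = 0.0728), and Hr, a corepressor of thyroid and vitamin D receptors, was 63.5, 54.5, 72.8 and 47.6 CPM in WT-RA and 37.9, 33.6, 37.7 and 46.2 CPM in WT-O2 (log2 fold change -0.62, SE 0.12, edgeR q = 0.0612). WT-RA mouse GSD400 was the highest for each of them. Prdm1, a repressor of transcription, was 1.67, 1.90, 1.84 and 1.87 CPM in WT-RA and 0.879, 1.18, 1.13 and 1.02 CPM in WT-O2 (log2 fold change -0.79, SE 0.17, edgeR q = 0.0758), and Otud1, a deubiquitinase, was 8.73, 13.8, 18.02 and 14.4 CPM in WT-RA and 7.99, 7.92, 7.61 and 7.398 CPM in WT-O2 (log2 fold change -0.83, SE 0.16, edgeR q = 0.0612). The other genes named by size of change were Tmem252, Rtl9 and Micall2, with rises of 0.71, 0.65 and 0.52 on the log2 scale, and Gm34583, Kbtbd8, Zfp418 and Clic5, at log2 fold changes of -1.33, -0.78, -0.78 and -0.65 (all q under the threshold of 0.1 in edgeR's test). Neu2, a sialidase, was 1.67, 2.47, 3.46 and 2.76 CPM in WT-RA and 1.06, 1.43, 1.17 and 1.51 CPM in WT-O2, without overlap (edgeR q = 0.0894).

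The KO mice were used to ask whether the response differed by genotype. No gene was called in the interaction (0% of 16637), where the unadjusted p was below 0.05 for 673 genes by edgeR, and DESeq2 called 0 with 708 below 0.05. Of the 107 genes called in WT, 81 had the same sign in KO. The share of all genes tested with the same sign was not counted, so this count has no background beside it. Of the genes called in WT, 2 were also called in KO, Fos at a log2 fold change of -1.22 and Ier3 at one of 1.96 (edgeR q = 0.0121 and 0.0301). The genes that follow were chosen after their values were seen. The log2 fold changes in KO were 2.44 for Depp1, 1.39 for Apold1, 1.20 for Edn1, 0.75 for Ppp1r3c, 0.62 for Txnip and -0.067 for Apaf1. Among neuronal genes they were -0.96 for Arc, -0.87 for Fosb and -0.72 for Kcnj2, and, closer to 0, -0.022 for Gabra2, -0.051 for Calb1, -0.058 for Numb, -0.016 for Plxnc1 and 0.015 for Col24a1. The interaction for Numb was -0.49 on the log2 scale (edgeR q = 1.00) and that for Gabra2 was 0.79 (edgeR q = 1.00), so a difference between genotypes was not shown for either. The interaction for Depp1 was 0.057 (edgeR q = 1.00).

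The promoter windows were searched for short motifs in all genes with an entry in the RefSeq table, 39 of the 49 lower genes, 45 of the 58 higher genes and 12423 of all genes tested, over the 250 bases before the start and on both strands. The CRE half-site TGACG was in 14 of the 39 lower genes (35.9%), 10 of the 45 higher genes (22.2%) and 27.8% of all. The HIF core ACGTG, which is also part of the E-box CACGTG, was in 23.1%, 24.4% and 23.5%. The full CRE TGACGTCA was in 7.69% of lower genes (Cbx8, Clk4 and Ell2), 2.22% of higher genes (Maff) and 2.74% of all. The AP-1 site TGANTCA was in 10.3%, 8.89% and 5.8%, the EGR site GCGGGGGCG in 5.13%, 2.22% and 5.24%, and the antioxidant response element TGACNNNGC in 15.4%, 20% and 13.5%. The FoxO site GTAAACA was in 7.69%, 6.67% and 2.79%, with Txnip among the higher genes that hold it. These are matches of letters in a window and not sites shown to be bound.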

How the data were processed

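Hippocampal polyA RNA of 14 mice was sequenced as 150 bp paired ends per the labels, and the 8 WT libraries were compared. As deposited by the authors, the values are estimated counts for each gene, made with Kallisto on GRCm39 and summed to genes with tximport per the study's methods. Software versions and the count scaling are not given in the sources used here, and 40.99% to 43.1% of the values in a WT library were not whole. The table holds 36118 genes, 35825 of which were given a symbol.

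Estimated counts were rounded, filtered with edgeR's filterByExpr function, normalized by TMM and fitted over all 14 libraries by edgeR 4.0.16 (R 4.3.3) using a separate coefficient for each group and no further covariate, so all groups share 1 estimate of the spread. The contrast of WT-O2 with WT-RA, and its difference from the same contrast in KO, were tested by the quasi-likelihood F-test, and the standard error was taken as the size of the log2 fold change over the square root of F. Libraries are separate mice, and mouse GSD408 was grouped by its title. DESeq2 1.42.0, other normalizations, filters and thresholds, and fits without 1 mouse were the alternatives.

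Named genes are the 20 largest rises and 20 largest falls among called genes of at least 1 mean CPM without overlap, every called gene in a list, for each list the most abundant members and the one with the smallest p, and the genes the study assayed. Some of these genes are not reported. The comparison, the 55 lists and these rules were chosen with earlier results of these data known. On simulated counts of 16637 genes for this comparison, the test called 69 of the 100 genes given a 1.5-fold change, 95 of the 100 given a 2-fold change and 15 of the rest. The changed genes were drawn from those above 1 CPM on average in WT-RA, and each gene was simulated independently. Differences between mice that many genes share were not simulated, so these counts do not measure recovery in the real data. Promoter sequences are from RefSeq on GRCm38.p6, matched by symbol, and no other coordinates are given because the counts use another build. Figures were drawn with matplotlib 3.10.9.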

Additional observations from a re-analysis of the deposited data

Results flagged for a closer look

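In 11 cases among the 194 groups of 4 mice checked (97 genes in WT-RA and WT-O2), 1 mouse lay apart from the other 3, beyond Dixon's 95% critical value for its gap over the range. Chance flags about 1 in 20 groups. GSD408 stood above the other WT-O2 mice for Edn1 (10.9 CPM) and Osgin1 (1.16 CPM). GSD405 stood above them for Npas4 (13.4 CPM), and GSD404 for Tbr1 (60.3 CPM) and Padi6 (0.403 CPM). In WT-RA, GSD398 was below the others for Fosb (5.82 CPM), GSD401 was above them for Ednrb (125 CPM) and below them for Ptpro (55.9 CPM), and GSD399 was above them for Usp18 (1.90 CPM). GSD400 was below the others for Gfap (214 CPM) and above them for Necab3 (51.1 CPM).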

How the results depend on the processing

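No paired analysis was possible because the labels give the groups no shared replicate numbers. The count of called genes moved with the test, the thresholds and the mice. It was 306 (171 higher, 135 lower) with DESeq2, 227 (119 higher, 108 lower) with DESeq2 on the 8 WT libraries, 20 (8 higher, 12 lower) with edgeR on the 8 WT libraries, 46 (19 higher, 27 lower) at a fold change of 1.5, 22 (8 higher, 14 lower) at a q of 0.05, and 6 (3 higher, 3 lower) with GSD408 as room air. Other normalizations and filters gave 108 to 144. Leaving out 1 WT mouse gave 13 to 272 genes, 5 to 121 higher and 8 to 167 lower, and without GSD398 the higher share fell to 38.6% from 54.2%, while without GSD401 it was 68.4%. The cause was not tested. The interaction stayed at 0 called genes under each alternative run, with 551 to 962 unadjusted p-values below 0.05 in the 14 fits without 1 mouse and 785 with GSD408 as room air.

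No called gene named here changed sign under any alternative, and 438 of 1203 of their values missed the thresholds. Of 538 values of the named genes that were not called, 22 passed the thresholds under an alternative. With DESeq2 over all 14 libraries these included Dcn (DESeq2 q = 0.03), Idi1 (DESeq2 q = 0.0255), Homer1 (DESeq2 q = 0.052) and Tbr1 (DESeq2 q = 0.0918). Of the genes not called, 6 near 0 changed sign. Rbfox3 was 0.0011 with DESeq2 on the WT libraries, 0.00040 with GSD408 as room air and -0.0723 to 0.1302 without 1 mouse. Egr3 was 0.0998 with GSD408 as room air and -0.0712 to 0.0584 without 1 mouse, and by the same settings Il18 was 0.0050 and -0.0763 to 0.036, Il1r1 -0.0573 and -0.0375 to 0.2775, and Rgs5 0.0122 and -0.0934 to 0.0223. Aif1 was -0.1217 to 0.0905 without 1 mouse. At this depth, genes under 1 CPM, such as Osgin1 and Padi6, rest on few counts per mouse.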
